A study of Mus musculus with 65 samples.

Results

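RAW264.7 is a mouse macrophage-like cell line derived from a tumour of a BALB/c animal, and it is widely used as a stand-in for primary macrophages. RNA of RAW264.7 cells labelled with guide RNA 2 was compared with RNA of RAW264.7 cells labelled with a control guide RNA, in both cases before stimulation with lipopolysaccharide (LPS), the cell wall component of Gram-negative bacteria that TLR4 senses. Libraries were chosen by their titles, which name guide 2 or the control guide and 0 h, and this gave 3 libraries of guide 2 and 3 of the control guide, 6 of the 65 libraries of the series. All of these cells carry a BALB/c background label and wild-type labels for MyD88, Trif, Ifnar and Suv39h1, so that no deletion of these genes is shared or compared. Libraries were made from polyadenylated RNA with a stranded kit, and the 3 libraries of a group carry cohort numbers 1 to 3, used here as replicate numbers. The same experiment holds 3 libraries each of guide 2 and the control guide after 2 h of LPS and of a second guide, guide 1, at 0 h, and these were used to see where guide 2 stood apart. The gene or element that each guide targets, and the enzyme it directs, are not given in the sources used here. Nor do they say whether the 3 cohorts of a guide are separate introductions of the guide or cultures of 1 line, so an effect of the guide and a property of the line that carries it cannot be told apart, and p-values measure the spread between these cultures.

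Resting macrophages keep surface receptors that bind microbes, debris, antibody-coated particles and dying cells, and lysosomes that digest what is taken up. Axl belongs to the TAM family of receptor tyrosine kinases, which bind phosphatidylserine on dying cells through the bridging proteins Gas6 and protein S and are known to restrain inflammatory signalling. Macrophages in culture also hold a low tonic level of interferon-stimulated genes, antiviral genes switched on when type I interferon receptors activate a transcription factor complex that binds the interferon-stimulated response element (ISRE). Transposable elements (TEs) are repeats descended from mobile DNA, in mice chiefly endogenous retroviruses with long terminal repeats (LTRs), LINEs and SINEs, and their transcripts are counted here too because the study's title concerns their expression.

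The gene counts per library ran from 36879570 to 76998163 for guide 2 and from 42187978 to 63987372 for the control guide. The lowest total was that of guide 2 replicate 3. Titles of these libraries begin with DC while the cell type label reads RAW264.7 macrophages, so the labels were checked against marker genes. Lyz2, a lysozyme of myeloid cells, was at 4425, 4490.1 and 4415 CPM in the guide 2 libraries and 3664, 3567 and 3879 CPM in the control libraries. Csf1r, the receptor for the growth factor M-CSF, was at 2323, 2309.6 and 2116 CPM in the guide 2 libraries and 1962, 1956 and 1919 CPM in the control libraries. Of 18 macrophage markers 3 averaged below 1 CPM over the 6 libraries. These were Mertk, Ms4a7, with at most 8 counts in any library, and C1qa, at 0 counts in all 6. Several defining dendritic cell genes were near absent, with Flt3 at 0 counts in all 6 libraries and at most 5 counts of Clec9a, 3 of Batf3 and 2 of Cd209a in any of them. Of 16 dendritic cell markers 10 averaged below 1 CPM. Of 10 T and NK cell markers 9 were below 1 CPM (a gene's counts relative to the library's scaled gene total) in both groups, as were all 8 B cell, 7 erythroid and megakaryocyte and 10 fibroblast markers and 13 of 14 granulocyte markers. On a principal component analysis of the 18 libraries of this experiment, the first component (70.7% of the variance) separated 0 h from 2 h of LPS, the second (5.59%) the control guide from both other guides, and the third (3.89%) guide 1 from guide 2. The fourth (3.48%) set the cohort 3 libraries apart from those of cohorts 1 and 2.

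A moderate number of genes differed, most of them by little. Of 13078 genes tested with edgeR's quasi-likelihood test, 592 (4.53%) passed a Benjamini-Hochberg adjusted p of 0.05, 338 higher (2.58%) and 254 lower (1.94%) with guide 2. The median log2 fold change was 0.42 among the higher and -0.49 among the lower genes, and 109 of the 592 (0.833% of the genes tested) differed at least 2-fold, 44 upward and 65 downward. In 589 of the 592 genes the 3 libraries of each guide did not overlap, as in 3166 of all genes tested (24.2%). The number of calls rested on the replicates. It was 252 without guide 2 replicate 1, 286 without guide 2 replicate 2, 272 without control replicate 1 and 255 without control replicate 2, and 671 and 613 without replicate 3 of guide 2 or control. Without the cohort 3 libraries of all groups it was 1551. Genes whose call ended when 1 library was left out are pointed out below. Because the RNA came from whole cultures, fewer cells expressing a gene and less RNA per cell cannot be told apart.

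**Figure D1:**
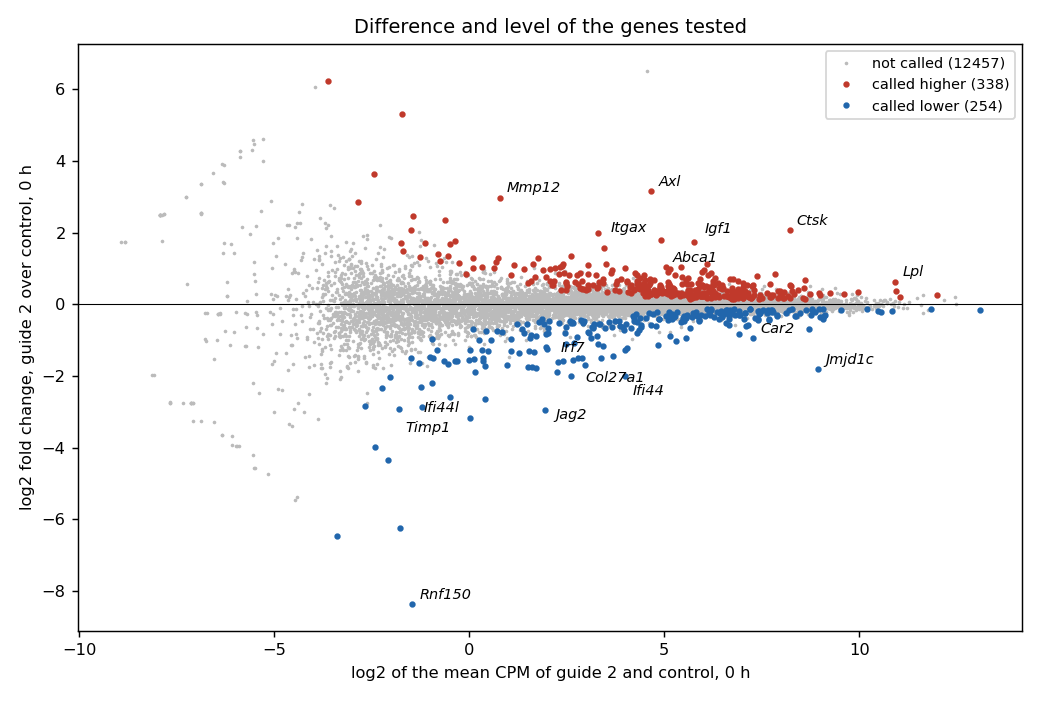
Each point is 1 gene, with the log2 of its mean CPM over both groups at 0 h on the horizontal axis and its fitted log2 fold change, guide 2 over control, on the vertical axis; red and blue points passed the adjusted p of 0.05 upward (338) and downward (254), and 29 genes at 0 in both groups are not drawn. Axl stands highest among the called genes above 5 CPM at 3.15, Jmjd1c falls by 1.81 at a high level, and most called genes lie within 1 log2 unit of 0.

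Axl showed the largest rise among called genes above 5 CPM. The Axl gene (chr7:25757273-25788705 in mm10, minus strand) was at 45.4, 42.5 and 48.8 CPM in the guide 2 libraries and 4.795, 4.63 and 5.96 CPM in the control libraries, a fitted 8.91-fold difference (log2 fold change 3.15, SE 0.13, edgeR adjusted p 2.5e-10). All guide 2 libraries lay far above all control libraries, and the 3 libraries of each guide were close together. The receptor Mertk, of the same family, stood at 0.554, 0.651 and 0.734 CPM against 0.05902, 0.214 and 0.309 CPM and missed the threshold (log2 fold change 1.79, SE 0.52, edgeR adjusted p 0.061). The ligand Gas6 pointed downward, at 2.96, 2.62 and 1.85 CPM against 3.33, 3.96 and 4.55 CPM, and also missed it (log2 fold change -0.65, SE 0.21, edgeR adjusted p 0.094). Both calls turned on the fit. With the cohort number as a replicate block Mertk (adjusted p 0.028) and Gas6 (adjusted p 0.042) passed. Mertk also passed without the cohort 3 libraries of all groups (adjusted p 0.031) and with only the 0 h libraries (adjusted p 0.045), and Gas6 with DESeq2 (adjusted p 0.041). Tyro3, the remaining TAM receptor, was below 1 CPM in every library. Of 15 genes of TAM signalling and apoptotic cell uptake tested, 4 rose and 1 fell (2.58% and 1.94% of all genes), with a median log2 fold change of 0.11 against 0.002 over all genes tested. Beside Axl these were the lipid exporter Abca1 at 1.04 (adjusted p 6.9e-04), the scavenger receptor Cd36 at 0.54 (adjusted p 0.0053) and protein S, Pros1, at 0.45 (adjusted p 0.048), while Mfge8, a bridging protein that links dying cells to integrins, fell (-0.30, adjusted p 0.0013). The call of Pros1 ended without guide 2 replicate 1 or 2 or control replicate 1, 2 or 3 (adjusted p 0.21, 0.15, 0.086, 0.12 and 0.14). With guide 1, Axl was 10.6, 11.8 and 11.1 CPM, a log2 fold change of 1.13 (adjusted p 1.0e-04) against the same control libraries, and guide 2 lay 2.02 above guide 1 in a direct test (edgeR adjusted p 5.0e-08). The order of the 3 groups was thus control, guide 1, guide 2, with no overlap between neighbours.

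**Figure D2:**
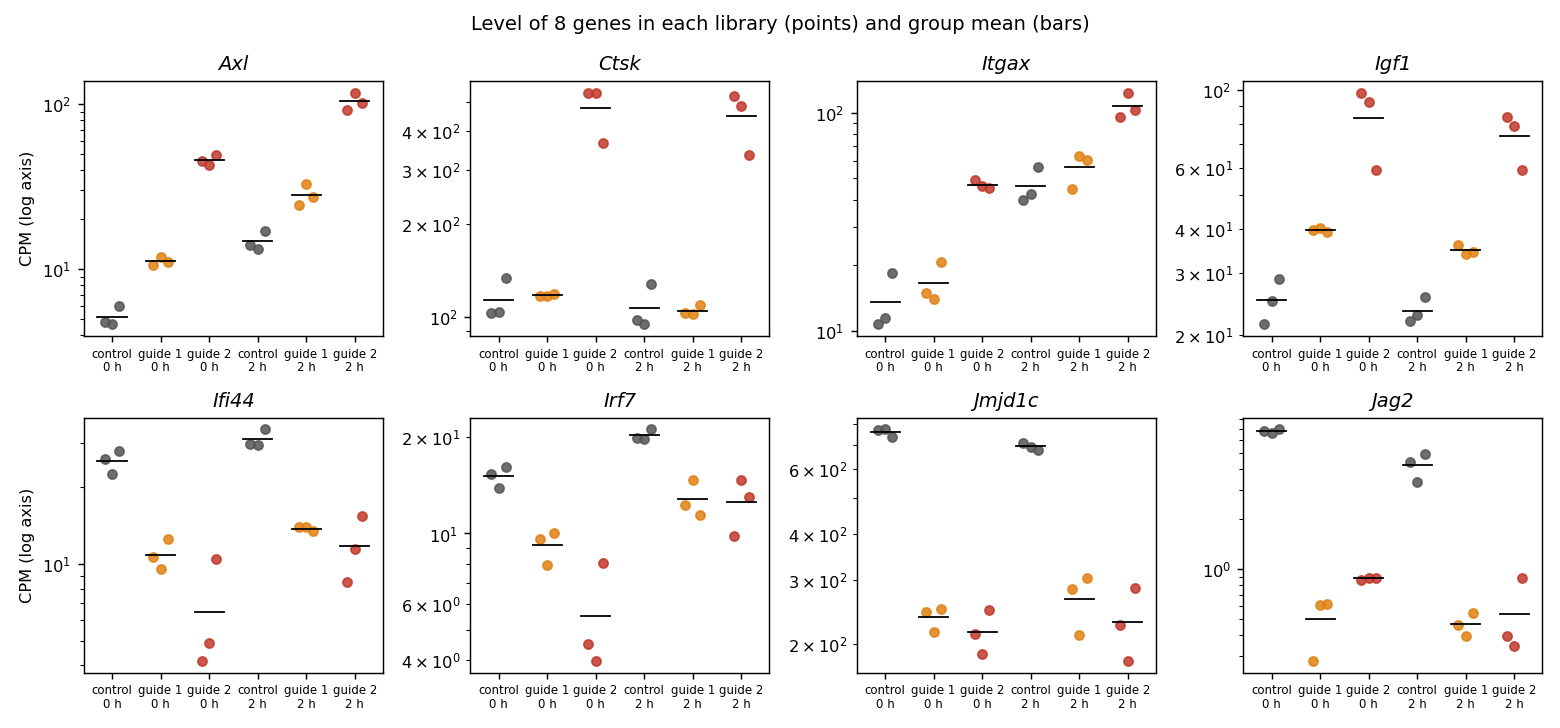
CPM on a log axis in each library (points) with the group mean (bars) for 8 genes, in the control, guide 1 and guide 2 groups at 0 h and after 2 h of LPS; Axl, Ctsk, Itgax and Igf1 are highest in guide 2 at each time, Ifi44 and Irf7 are lowest in guide 2 replicates 1 and 2 at 0 h, and Jmjd1c and Jag2 are low with both guides.

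Many surface receptors of phagocytes were higher with guide 2. Of 22 scavenger receptors, Fc receptors and C-type lectins tested, 9 were called higher and none lower, against 2.58% of all genes called higher, and 1 of the 22 lay below 0 (median log2 fold change 0.29). Olr1, a receptor for oxidised lipoprotein, was at 85.9, 93.5 and 77.3 CPM in the guide 2 libraries and 45.2, 41.9 and 46.1 CPM in the control libraries (log2 fold change 0.95, SE 0.08, edgeR adjusted p 3.8e-06). Clec7a, the beta-glucan receptor dectin-1, was at 45.5, 52.1 and 49.9 CPM in the guide 2 libraries and 26.04, 25.6 and 32.6 CPM in the control libraries (log2 fold change 0.81, SE 0.11, edgeR adjusted p 2.4e-04). Neither gene's groups overlapped. Fcgr1, the high-affinity IgG receptor, was low, at 5.31, 4.93 and 4.48 CPM against 2.66, 2.72 and 2.19 CPM (log2 fold change 0.96, SE 0.19, edgeR adjusted p 0.0061). Clec4n, the mannan receptor dectin-2, was at 8.81, 11.04 and 6.02 CPM against 3.16, 2.61 and 4.55 CPM (log2 fold change 1.34, SE 0.36, edgeR adjusted p 0.042). The remaining 5 calls, named to complete the count, were Fcgr3 at 0.72, Fcgr2b at 0.63, Cd36, Clec4a2 at 0.45 and Msr1 at 0.24. Cd68 and Colec12, the members with the highest CPM among those that did not pass, were at 0.09 (adjusted p 0.30) and 0.03 (adjusted p 0.87). The count of 9 was 5 without guide 2 replicate 1 or 2 and 4 without control replicate 1 or 2, and 15 without the cohort 3 libraries of all groups. Clec4n lost its call without guide 2 replicate 1 or 2 or control replicate 1 or 2 (adjusted p 0.12, 0.18, 0.16 and 0.18). For Fcgr3 this was so without control replicate 1 or 2 (adjusted p 0.055 and 0.061). For Fcgr2b it was so without guide 2 replicate 1, 2 or 3 or control replicate 1 or 2 (adjusted p 0.075, 0.0506, 0.060, 0.13 and 0.13). Clec4a2 lost it without guide 2 replicate 1, 2 or 3 or control replicate 1 or 2 (adjusted p 0.069, 0.15, 0.093, 0.22 and 0.16). The call of Msr1 ended without guide 2 replicate 1 or 2 or control replicate 1 or 2 (adjusted p 0.16, 0.21, 0.19 and 0.15). In the direct test against guide 1, 7 of the 22 were higher with guide 2 and none lower, where 1.2% of all genes tested were higher and 0.512% lower. Fcgr1 was 1.23 (adjusted p 0.0013) above guide 1 and Clec7a 0.59 (adjusted p 0.0050), while against the control libraries guide 1 had Fcgr1 at -0.27 (adjusted p 0.63) and Clec7a at 0.22 (adjusted p 0.39).

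Some integrins that mark myeloid cells rose as well. Itgax, which encodes CD11c, was at 49.1, 46.1 and 45.4 CPM in the guide 2 libraries and 10.7, 11.4 and 18.4 CPM in the control libraries (log2 fold change 1.80, SE 0.20, edgeR adjusted p 5.3e-05), with the highest control library, replicate 3, still below every guide 2 library. Itgam, encoding CD11b, differed by less, at 229, 216 and 211 CPM against 176, 172 and 183 CPM (log2 fold change 0.31, SE 0.05, edgeR adjusted p 0.0032), and their shared partner Itgb2 was at 488, 455 and 383 CPM against 324, 319 and 332 CPM (log2 fold change 0.44, SE 0.10, edgeR adjusted p 0.013). The beta chain Itgb7 fell (log2 fold change -0.57, SE 0.09, edgeR adjusted p 0.0012), from 30.1, 27.7 and 32.1 to 20.3, 19.2 and 21.1 CPM. In all, 4 of 23 integrin and adhesion genes tested rose, the fourth being the tetraspanin Cd9 (0.29), and 1 fell, against 2.58% higher and 1.94% lower over all genes. Itgb2 lost its call without guide 2 replicate 1 or 2 or control replicate 1 or 2 (adjusted p 0.089, 0.061, 0.058 and 0.068). Guide 1 left Itgax at 0.30 (adjusted p 0.62), and guide 2 lay 1.51 (adjusted p 2.7e-04) above guide 1. Of 16 macrophage markers tested, 8 rose and 1 fell, where 2.58% of all genes rose and 1.94% fell, with a median of 0.22 and summed levels of 10933 to 12017 CPM with guide 2 and 10024 to 10287 CPM with the control guide. Adgre1, which encodes the macrophage surface marker F4/80, fell, at 40.5, 38.9 and 34.3 CPM against 49.4, 46.1 and 58.7 CPM (log2 fold change -0.44, SE 0.09, edgeR adjusted p 0.0077). Without replicate 1 or 2 of either guide the count of rises was 3, and without the cohort 3 libraries of all groups 12 rose and 2 fell. Of 9 dendritic cell markers tested, Itgax and Irf8 (log2 fold change 0.68, SE 0.12, edgeR adjusted p 0.0024) rose and none fell, and their summed level was 562 to 596 CPM with guide 2 and 351 to 463 CPM with the control guide. Sirpa, shared by macrophages, made up most of that sum, at 514, 479 and 508 CPM against 317, 322 and 417 CPM, and the defining Flt3 was at 0 as given above.

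The AP-1 and PU.1 sequences were looked up in the promoters of the genes that rose, since AP-1 and PU.1 are transcription factors active at macrophage genes. The windows were the 250 bases before the transcription start in RefSeq (GRCm38.p6, the assembly that mm10 names), and TGANTCA (AP-1) and GAGGAAGT (PU.1) were searched on both strands; each motif was counted on its own. TGANTCA was found in the windows of 26 of the 271 higher genes with a promoter entry (9.59%), 11 of 201 lower genes (5.47%) and 584 of the 10245 genes tested (5.70%), and in 6.75% of all 32851 promoters in the table. GAGGAAGT was found in 2.95% of higher, 2.49% of lower and 2.99% of all genes tested. Of the 24 genes named for the size of their change, 22 had a promoter entry and 4 held TGANTCA, all of them genes that rose: Hdac9, Igf1, Il13ra2 and Itgax. The windows of Itgax (chr7:128129300-128129549, plus strand) and Igf1 (chr10:87860861-87861110, plus strand) are printed because both genes rose strongly at a well-measured level; capitals mark the match, which starts 56 bases before the Itgax start and 37 bases before the Igf1 start. The Axl window (chr7:25788734-25788983, minus strand) holds no match and is shown for comparison.
Itgax: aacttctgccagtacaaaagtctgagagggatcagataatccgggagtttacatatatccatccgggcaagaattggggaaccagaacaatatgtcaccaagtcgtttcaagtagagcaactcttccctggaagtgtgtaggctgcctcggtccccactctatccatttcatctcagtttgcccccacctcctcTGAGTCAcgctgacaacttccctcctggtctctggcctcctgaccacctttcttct
Igf1: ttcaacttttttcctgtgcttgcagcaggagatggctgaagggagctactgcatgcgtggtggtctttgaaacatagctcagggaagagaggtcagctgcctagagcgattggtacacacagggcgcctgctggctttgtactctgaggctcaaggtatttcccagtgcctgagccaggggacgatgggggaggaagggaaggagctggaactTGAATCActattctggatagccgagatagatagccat
Axl: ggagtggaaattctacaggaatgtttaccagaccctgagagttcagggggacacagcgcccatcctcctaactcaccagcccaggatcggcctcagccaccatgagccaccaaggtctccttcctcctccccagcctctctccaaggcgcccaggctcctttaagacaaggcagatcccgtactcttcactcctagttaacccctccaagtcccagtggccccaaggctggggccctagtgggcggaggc
A match describes these letters in this window and was not tested as a binding site. The Igf1 window lies before a RefSeq start inside the gene, whose annotated span begins at chr10:87858265. Use of that start in these cells was not tested.

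Matrix-degrading and osteoclast genes rose in part. Ctsk, cathepsin K, the collagen-degrading protease of osteoclasts, was at 532, 534 and 367 CPM in the guide 2 libraries and 103, 104 and 134 CPM in the control libraries (log2 fold change 2.07, SE 0.16, edgeR adjusted p 2.3e-06). Guide 2 replicate 3 was lower than the other 2 guide 2 libraries and still above every control library. With guide 1 Ctsk stayed at 117, 117 and 119 CPM (0.05, adjusted p 0.94 against control), and guide 2 lay 2.02 (adjusted p 2.5e-06) above guide 1. Mmp12, macrophage elastase, was low but not overlapping, at 3.72, 3.84 and 1.52 CPM against 0.251, 0.557 and 0.397 CPM (log2 fold change 2.97, SE 0.41, edgeR adjusted p 3.4e-04). Timp2, an inhibitor of matrix proteases, was at 5.56, 5.298 and 5.74 CPM against 3.26, 2.46 and 2.69 CPM (log2 fold change 0.97, SE 0.13, edgeR adjusted p 3.5e-04). The related inhibitor Timp1 went the other way, at 0.0863, 0.292 and 0.253 CPM against 1.71, 2.42 and 1.35 CPM (log2 fold change -3.17, SE 0.47, edgeR adjusted p 8.0e-04). Of 22 matrix genes tested, 5 rose and 2 fell, Timp1 among the falls, against 2.58% and 1.94% of all genes. The number of rises was 3 without replicate 1 or 2 of either guide. Tnc, the matrix glycoprotein tenascin C, rose too (15.98, 16.4 and 17.1 CPM against 6.02, 5.78 and 4.83 CPM, log2 fold change 1.56, SE 0.31, edgeR adjusted p 0.0065), as did the secreted kinase Fam20c (log2 fold change 1.12, SE 0.21, edgeR adjusted p 0.0057).

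Of 16 osteoclast genes tested, 5 rose and 1 fell (median 0.26), where 2.58% of all genes rose and 1.94% fell. Dcstamp, needed for fusion of osteoclast precursors, was at 59.2, 56.2 and 56.5 CPM against 33.7, 32.5 and 41.8 CPM (log2 fold change 0.67, SE 0.10, edgeR adjusted p 8.7e-04). Atp6v0d2, a proton pump subunit of osteoclasts, was at 82.1, 90.1 and 71.8 CPM against 36.5, 34.4 and 61.1 CPM (log2 fold change 0.89, SE 0.22, edgeR adjusted p 0.027). Car2, the carbonic anhydrase that supplies acid in osteoclasts, fell by 0.95 on the log2 scale, from 200.2, 207 and 203 to 97.01, 96.6 and 124 CPM (edgeR adjusted p 3.7e-05). Nfatc1 and Fos, transcription factors of the osteoclast programme, were at 0.14 (adjusted p 0.23) and 0.43 (adjusted p 0.075). Atp6v0d2 lost its call without guide 2 replicate 1 or 2 or control replicate 1 or 2 (adjusted p 0.087, 0.11, 0.15 and 0.15), and the 5 rises became 2 without replicate 1 of either guide and 3 without replicate 2. Against guide 1, Dcstamp was at 0.06 (adjusted p 0.92) and Car2 at -0.74 (adjusted p 3.8e-04); Car2 passed that test and Dcstamp did not.

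A few lysosomal genes were called higher, by small amounts. Of 30 lysosomal hydrolases and proton pump subunits tested, 6 were called higher (2.58% over all genes), none lower and 24 not at all, and 1 lay below 0, with a median log2 fold change of 0.15. Neu1, a sialidase, was at 47.6, 43.6 and 38.8 CPM in the guide 2 libraries and 31.8, 32.5 and 33.4 CPM in the control libraries (log2 fold change 0.42, SE 0.07, edgeR adjusted p 0.0036). The cathepsins Ctsb, Ctsd and Ctsl were at 0.38 (adjusted p 0.015), 0.35 (adjusted p 0.013) and 0.31 (adjusted p 0.033). Psap, which encodes the saposins, and Lamp1, a lysosomal membrane protein, did not pass, at 0.19 (adjusted p 0.11) and 0.04 (adjusted p 0.65). Gaa, the acid glucosidase, and Atp6v1b2, a proton pump subunit, completed the count at 0.29 (adjusted p 0.016) and 0.27 (adjusted p 0.046). Neu1 apart, the calls were fragile: Ctsb was lost without guide 2 replicate 1 or 2 or control replicate 1 or 2 (adjusted p 0.092, 0.093, 0.078 and 0.093). For Ctsd this was so without guide 2 replicate 1 or 2 or control replicate 1 or 2 (adjusted p 0.071, 0.072, 0.071 and 0.088). For Ctsl it was so without guide 2 replicate 1 or 2 or control replicate 1, 2 or 3 (adjusted p 0.18, 0.14, 0.074, 0.13 and 0.086). Gaa was lost without guide 2 replicate 1 or 2 or control replicate 1 or 2 (adjusted p 0.11, 0.059, 0.071 and 0.093). The call of Atp6v1b2 ended without guide 2 replicate 1, 2 or 3 or control replicate 1 or 2 (adjusted p 0.10, 0.12, 0.10, 0.18 and 0.21). The 6 calls fell to 1 without replicate 1 or 2 of either guide and rose to 8 without replicate 3 of either guide. The count was 21 without the cohort 3 libraries of all groups. Among lipid genes, Lpl, lipoprotein lipase, was at 2472, 2355 and 2192 CPM in the guide 2 libraries and 1479, 1460.1 and 1602 CPM in the control libraries (log2 fold change 0.63, SE 0.05, edgeR adjusted p 3.5e-06), with all guide 2 libraries above all control libraries. Of 21 LXR target and lipid storage genes, Lpl and Abca1 rose and Apoe, apolipoprotein E, fell (6.65, 5.68 and 6.83 CPM against 9.12, 8.89 and 8.4997 CPM, log2 fold change -0.47, SE 0.11, edgeR adjusted p 0.021). Apoe lost its call without guide 2 replicate 1 or 2 or control replicate 1 or 2 (adjusted p 0.061, 0.13, 0.095 and 0.080). Abca1 differed from guide 1 by 1.17 (adjusted p 2.7e-04) and Lpl by 0.39 (adjusted p 3.1e-04). None of 23 cholesterol synthesis and uptake genes tested passed, with Srebf2, the master regulator of that pathway, at 0.03 (adjusted p 0.83). Even so, only 1 of the 23 lay below 0, against 49.2% of all genes, and their median log2 fold change was 0.12. At 2 h of LPS 2 of them were called higher.

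Among secreted factors and other receptors, Igf1, insulin-like growth factor 1, was at 98.5, 92.7 and 59.2 CPM in the guide 2 libraries and 21.4, 24.9 and 28.8 CPM in the control libraries (log2 fold change 1.74, SE 0.16, edgeR adjusted p 5.5e-06). Guide 2 replicate 3 was again the lowest guide 2 library and lay above every control library. Il13ra2, a decoy receptor for interleukin 13, was at 17.9, 18.03 and 11.1 CPM against 4.01, 4.498 and 3.53 CPM (log2 fold change 1.98, SE 0.20, edgeR adjusted p 2.7e-05). Blnk, an adaptor of immunoreceptor signalling, was at 11.7, 10.5 and 11.5 CPM against 5.33, 5.398 and 5.14 CPM (log2 fold change 1.08, SE 0.12, edgeR adjusted p 6.4e-05), and the membrane protein Tmem176b at 7.48, 7.33 and 6.83 CPM against 3.56, 3.26 and 3.02 CPM (log2 fold change 1.14, SE 0.13, edgeR adjusted p 6.4e-05). Trpv4, a calcium channel, was at 8.18, 6.91 and 5.97 CPM against 3.497, 2.93 and 3.73 CPM (log2 fold change 1.06, SE 0.17, edgeR adjusted p 0.0015). The histone deacetylase Hdac9 completed the 12 largest rises (log2 fold change 1.13, SE 0.25, edgeR adjusted p 0.015), but its call ended without guide 2 replicate 1 or 2 or control replicate 1 or 2 (adjusted p 0.063, 0.097, 0.070 and 0.092). Il13ra2 was not set apart from guide 1 (0.38, adjusted p 0.50), whereas Igf1 (1.07, adjusted p 7.1e-04), Blnk (1.02, adjusted p 1.4e-04) and Tmem176b (1.55, adjusted p 4.4e-06) were higher with guide 2 than with guide 1.

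Interferon-stimulated genes stood lower. Of 56 tested, 14 were called lower and none higher, against 1.94% of all genes called lower, and 49 of the 56 lay below 0, against 49.2% of all genes. The median log2 fold change was -0.37. Irf7 and Bst2 are also markers of plasmacytoid dendritic cells, a list of 6 tested genes whose summed level was 115 to 135 CPM with guide 2 and 149 to 154 CPM with the control guide, and whose part in the result was not tested. Ifi44 (chr3:151730922-151749960, minus strand) was at 4.15, 4.87 and 10.5 CPM in the guide 2 libraries and 25.9, 22.7 and 27.7 CPM in the control libraries (log2 fold change -2.02, SE 0.26, edgeR adjusted p 1.8e-04). Its neighbour Ifi44l (chr3:151758737-151762892, minus strand) was at 0.209, 0.359 and 0.582 CPM against 2.54, 1.58 and 2.61 CPM (log2 fold change -2.65, SE 0.31, edgeR adjusted p 6.4e-05). Irf7, the transcription factor that amplifies type I interferon, was at 4.497, 3.98 and 8.096 CPM in the guide 2 libraries and 15.4, 13.9 and 16.1 CPM in the control libraries (log2 fold change -1.49, SE 0.20, edgeR adjusted p 3.3e-04). Irf7 lies on the minus strand across Phrf1 on the plus strand, and as the strand setting of the counting is not given, reads of the 2 genes cannot be told apart where they overlap. In all 3 genes guide 2 replicate 3 was the highest guide 2 library and still below every control library. Rtp4, a chaperone and interferon-induced regulator, was at 1.13, 1.27 and 2.18 CPM against 4.18, 4.93 and 5.92 CPM (log2 fold change -1.77, SE 0.41, edgeR adjusted p 0.019), and its call ended without guide 2 replicate 1 or 2 or control replicate 2 (adjusted p 0.12, 0.096 and 0.060).

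The other 10 interferon-stimulated genes called lower, named to complete the count, were 5 of the oligoadenylate synthetase family, which activates RNase L, and 5 of other kinds. Oasl2 was at -1.27, Oas2 at -1.15, Oas3 at -0.89, and the near-identical neighbours Oas1a and Oas1g, whose reads may be split between them, at -0.62 and -0.61. Oas3 itself was at 19.2, 19.98 and 35.3 CPM against 43.1, 41.3 and 52.8 CPM, again with guide 2 replicate 3 between the groups. Ifi27l2a was at -1.02, the RNA sensor regulator Dhx58 at -0.79, the exonuclease Isg20 at -0.69, Bst2 (tetherin, which holds budding virions at the cell surface) at -0.47 and Lgals3bp at -0.33. Of these 10 genes Bst2 alone kept its call whichever single library was left out. Dhx58 lost it without guide 2 replicate 1 or 2 or control replicate 1, 2 or 3 (adjusted p 0.19, 0.19, 0.10, 0.068 and 0.10). For Oas2 this was so without guide 2 replicate 1 or 2 or control replicate 1, 2 or 3 (adjusted p 0.17, 0.16, 0.086, 0.074 and 0.083). For Oas3 it was so without guide 2 replicate 1 or 2 (adjusted p 0.068 and 0.063). Oasl2 lost it without guide 2 replicate 1 or 2 or control replicate 1, 2 or 3 (adjusted p 0.24, 0.20, 0.10, 0.11 and 0.13). For Oas1a this was so without guide 2 replicate 1 or 2 or control replicate 1, 2 or 3 (adjusted p 0.21, 0.19, 0.090, 0.10 and 0.11). For Oas1g it was so without guide 2 replicate 1 or 2 or control replicate 1, 2 or 3 (adjusted p 0.18, 0.15, 0.084, 0.069 and 0.091). Ifi27l2a lost it without guide 2 replicate 1 or 2 (adjusted p 0.072 and 0.070). For Isg20 this was so without guide 2 replicate 1 or 2 or control replicate 1, 2 or 3 (adjusted p 0.17, 0.17, 0.13, 0.069 and 0.12). For Lgals3bp it was so without guide 2 replicate 2 or control replicate 1 (adjusted p 0.057 and 0.071). Members with the highest CPM among those that did not pass were Ifitm3, which blocks virus entry, at -0.29 (adjusted p 0.083), and the ubiquitin ligase Trim25, at -0.03 (adjusted p 0.92). Classical members such as Ifit1, Isg15 and Rsad2 were low, with Ifit1 between 0.481 and 1.54 CPM and Isg15 between 1.36 and 2.91 CPM over the 6 libraries, and did not pass. The count of 14 was 5 and 4 without guide 2 replicates 1 and 2, 20 without guide 2 replicate 3, 7 without control replicate 1 or 2 and 8 without control replicate 3. The median stayed between -0.54 and -0.27 in these 6 fits, and no interferon-stimulated gene was called higher in any of them. Without the cohort 3 libraries of all groups 22 of 57 tested were called lower.

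**Figure D3:**
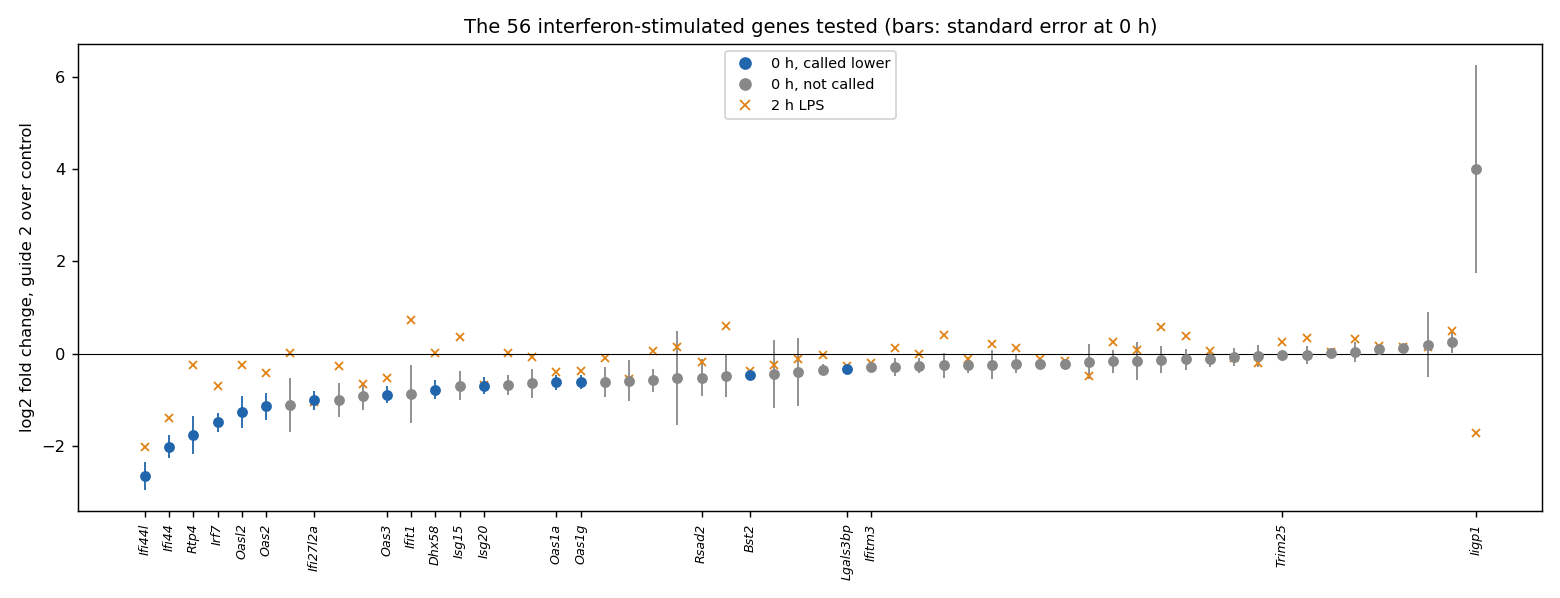
Fitted log2 fold change, guide 2 over control, of the 56 interferon-stimulated genes tested, ordered by their value at 0 h; circles with standard error bars are 0 h (blue where called lower, grey where not) and crosses are 2 h of LPS, and genes described in the text are labelled. The 14 called genes lie between -2.65 and -0.33, and Iigp1 at the right, at 4.01 and not called, rests on reads in 1 of the 6 libraries.

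Genes of interferon production and sensing were called in both directions, set beside 4.53% called over all genes. Of 15 interferon, receptor and IRF genes tested, Irf8 and Ifngr2, a chain of the interferon gamma receptor (0.26, adjusted p 0.022), rose and none fell. Ifngr2 lost its call without guide 2 replicate 1 or 2 or control replicate 1 or 2 (adjusted p 0.11, 0.12, 0.10 and 0.13). Of 23 nucleic acid sensors and adaptors, Tlr3 rose (0.54, adjusted p 0.024) and Dhx58 fell, and Unc93b1 and Tlr7 did not pass, at 0.12 (adjusted p 0.34) and -0.18 (adjusted p 0.37). Tlr3 lost its call without guide 2 replicate 1 or 3 or control replicate 1 or 2 (adjusted p 0.071, 0.071, 0.089 and 0.14). With guide 1, 4 of the 56 interferon-stimulated genes were called lower than the same control libraries, with a median of -0.42, where guide 1 against control called 1.19% of all genes lower. Directly against guide 1, 1 of the 56 was lower with guide 2, namely Ifi44l (-1.38, adjusted p 0.034), and none was higher. Ifi44 was -0.79 (adjusted p 0.19) and Irf7 -0.76 (adjusted p 0.078) in that test. A difference between guide 2 and guide 1 was therefore shown for Ifi44l and for no other gene of the list.

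The ISRE core, TTTC followed by any 2 bases and again TTTC, searched on both strands in the 250 bases before each start, was found in 20 of the 42 tested interferon-stimulated genes with a promoter entry (47.6%), in 3.22% of all genes tested and in 2.98% of all promoters. Among those called lower it was found in 4 of 10, and among those not called in 16 of 32. The windows of Oas1a, Oas3 and Bst2 are printed because they are lower genes with a match, and that of Irf7 because it fell more and holds none; capitals mark the matches, and overlapping matches run together. Oas1a is at chr5:120907526-120907775, minus strand, Oas3 at chr5:120777660-120777909, minus strand, Bst2 at chr8:71537473-71537722, minus strand and Irf7 at chr7:141266425-141266674, minus strand.
Oas1a: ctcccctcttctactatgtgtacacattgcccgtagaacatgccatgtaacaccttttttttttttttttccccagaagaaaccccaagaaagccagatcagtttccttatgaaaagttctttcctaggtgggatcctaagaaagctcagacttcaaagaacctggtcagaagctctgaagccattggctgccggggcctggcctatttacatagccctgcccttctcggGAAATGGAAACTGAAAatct
Oas3: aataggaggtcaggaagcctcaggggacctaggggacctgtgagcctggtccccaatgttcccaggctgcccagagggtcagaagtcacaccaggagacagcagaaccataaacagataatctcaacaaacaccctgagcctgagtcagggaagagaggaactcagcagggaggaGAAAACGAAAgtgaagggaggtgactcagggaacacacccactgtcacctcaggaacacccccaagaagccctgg
Bst2: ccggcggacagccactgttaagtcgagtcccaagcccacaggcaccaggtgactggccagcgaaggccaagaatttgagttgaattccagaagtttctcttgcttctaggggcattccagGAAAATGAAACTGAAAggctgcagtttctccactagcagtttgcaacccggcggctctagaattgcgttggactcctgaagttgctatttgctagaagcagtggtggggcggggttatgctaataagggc
Irf7: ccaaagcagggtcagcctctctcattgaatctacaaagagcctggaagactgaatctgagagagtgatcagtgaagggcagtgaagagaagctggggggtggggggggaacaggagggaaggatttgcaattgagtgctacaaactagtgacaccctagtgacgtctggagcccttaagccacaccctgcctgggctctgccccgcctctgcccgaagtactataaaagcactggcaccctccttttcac
The Irf7 window covers only the RefSeq start printed here, and nothing follows from it about the factors that bind elsewhere.

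Several of the largest falls were also seen with guide 1. Jmjd1c, a chromatin protein of the histone demethylase family (chr10:67096125-67256326, plus strand), was at 214, 189 and 248 CPM in the guide 2 libraries and 768, 772 and 736 CPM in the control libraries (log2 fold change -1.81, SE 0.14, edgeR adjusted p 2.3e-06), with a wide gap between the groups. Reep3 overlaps it on the opposite strand, and the same limit on strand holds. Guide 1 had 245, 217 and 249 CPM (-1.68, adjusted p 2.2e-06 against the same control libraries), and guide 2 and guide 1 were not set apart (-0.13, adjusted p 0.86). Jag2, a Notch ligand (chr12:112907819-112929776, minus strand), was at 0.863, 0.8897 and 0.886 CPM in the guide 2 libraries and 6.76, 6.64 and 6.95 CPM in the control libraries (log2 fold change -2.95, SE 0.26, edgeR adjusted p 3.8e-06), and guide 1 stood at -3.71 (adjusted p 9.2e-07) against control. Col27a1, a fibrillar collagen, was at 2.17, 2.08 and 3.04 CPM against 9.68, 9.83 and 9.405 CPM (log2 fold change -2.02, SE 0.24, edgeR adjusted p 9.4e-05) and at -1.86 (adjusted p 2.3e-04) with guide 1. Trp53i11, a gene named for its induction by p53, was at -1.89 with guide 2 and -2.22 with guide 1, the small heat shock protein Hspb7 at -1.56 and -1.30, and the ephrin receptor Epha2 at -1.49 and -2.02. These pairs share the control libraries, so their likeness is given as values only. None of the 6 passed the direct test between the guides (adjusted p from 0.20 to 0.92).

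Of the other large falls, 2 differed between the guides. Ly86, the MD-1 partner of the TLR homologue RP105, was at 2.51, 2.098 and 2.505 CPM in the guide 2 libraries and 6.52, 7.797 and 7.42 CPM in the control libraries (log2 fold change -1.61, SE 0.28, edgeR adjusted p 0.0028) and lower still with guide 1 (0.233, 0.3804 and 0.465 CPM), which left guide 2 above guide 1 by 2.68 (adjusted p 3.3e-04). Areg, the growth factor amphiregulin, was at 2.64, 2.802 and 2.505 CPM in the guide 2 libraries and 8.44, 9.103 and 6.42 CPM in the control libraries (log2 fold change -1.59, SE 0.25, edgeR adjusted p 0.0011) and differed from guide 1 by -1.45 (adjusted p 0.0039). Lgals9, galectin 9, was at 2.76, 2.404 and 6.25 CPM against 10.8, 11.97 and 12.6 CPM (log2 fold change -1.69, SE 0.26, edgeR adjusted p 9.6e-04) and Gpat3, an enzyme of triglyceride synthesis, at 2.75, 2.47 and 5.95 CPM against 11.3, 10.7 and 8.04 CPM (log2 fold change -1.50, SE 0.29, edgeR adjusted p 0.0056); neither was set apart from guide 1 (-0.52, adjusted p 0.53, and -0.43, adjusted p 0.70). Against guide 1, 224 of 13078 genes (1.71%) were called, 157 higher and 67 lower with guide 2, and 293 (2.24%) were called between guide 1 and control, 137 higher (1.05%) and 156 lower (1.19%).

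Single inflammatory and signalling genes differed before stimulation. Of 32 NF-kB subunits, inhibitors and early genes tested, 3 rose and 2 fell, against 4.53% called in either direction over all genes. The early growth response factor Egr2 was at 58.997, 49.8 and 64.1 CPM against 25.3, 26.02 and 33.3 CPM (log2 fold change 1.03, SE 0.18, edgeR adjusted p 0.0033), and the stress-induced factor Atf3 at 43.6, 42.8 and 53.01 CPM against 22.5, 21.4 and 26.98 CPM (log2 fold change 0.97, SE 0.15, edgeR adjusted p 0.0013). Ier3, an early gene that limits NF-kB activity, was at 88.9, 83.7 and 86.2 CPM against 162, 165 and 132 CPM (log2 fold change -0.83, SE 0.12, edgeR adjusted p 5.8e-04), and none of these 3 genes' groups overlapped. The remaining calls were Tnip3, an inhibitor of NF-kB (0.44, adjusted p 0.0012), and Traf1 (-0.43), while Nfkb1 was at 0.13 (adjusted p 0.13). Of 29 cytokines and chemokines tested, beside the same 4.53%, Ccl9 (0.40, adjusted p 0.026) and the interleukin 1 receptor antagonist Il1rn (0.28, adjusted p 0.024) rose and Vegfa fell (-0.45, adjusted p 0.032). Ccl9 lost its call without guide 2 replicate 1, 2 or 3 or control replicate 1 or 2 (adjusted p 0.061, 0.069, 0.071, 0.11 and 0.14). For Il1rn this was so without guide 2 replicate 1 or 2 or control replicate 1, 2 or 3 (adjusted p 0.064, 0.11, 0.089, 0.093 and 0.0518). For Vegfa it was so without guide 2 replicate 1 or 2 or control replicate 1 or 2 (adjusted p 0.15, 0.16, 0.13 and 0.15). Spp1, osteopontin, did not pass (0.13, adjusted p 0.16). Of 24 TLR4 signalling genes only Irak2, a kinase of the MyD88 pathway, was called (0.39, adjusted p 0.032), lost without guide 2 replicate 1, 2 or 3 or control replicate 1 or 2 (adjusted p 0.11, 0.078, 0.062, 0.15 and 0.16), and the LPS co-receptor Cd14 was at -0.22 (adjusted p 0.28).

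Antigen presentation genes split. Of 9 MHC class II pathway genes tested, 4 rose and 1 fell, where 4.53% of all genes were called in either direction. H2-DMa, which loads peptides onto class II molecules, was at 11.1, 9.96 and 11.1 CPM against 7.599, 8.31 and 5.98 CPM (log2 fold change 0.55, SE 0.11, edgeR adjusted p 0.0091), and the neighbouring, closely related H2-DMb1 and H2-DMb2, between which reads may be split, were at 1.32 (adjusted p 0.048) and 1.18 (adjusted p 0.011), at no more than 2.42 CPM in any of the 6 libraries. Cd74, the invariant chain, fell from 109, 117 and 123 to 85.03, 81.96 and 93.4 CPM (log2 fold change -0.42, SE 0.09, edgeR adjusted p 0.0098). The fourth rise was Ifi30, a thiol reductase of antigen processing (0.19, adjusted p 0.026). H2-DMa lost its call without guide 2 replicate 1 (adjusted p 0.0504). The call of Cd74 ended without guide 2 replicate 1 or 2 (adjusted p 0.0543 and 0.061). H2-DMb1 lost it without guide 2 replicate 1, 2 or 3 or control replicate 1, 2 or 3 (adjusted p 0.16, 0.16, 0.0507, 0.17, 0.093 and 0.12). For H2-DMb2 this was so without guide 2 replicate 1 or control replicate 1 or 2 (adjusted p 0.064, 0.071 and 0.071). For Ifi30 it was so without guide 2 replicate 1, 2 or 3 or control replicate 1 or 2 (adjusted p 0.0528, 0.093, 0.063, 0.11 and 0.15). Of 21 MHC class I pathway genes, the peptide transporter Tap2 (0.29, adjusted p 0.039) and the immunoproteasome subunit Psmb8 (0.25, adjusted p 0.048) rose by little. Tap2 lost its call without guide 2 replicate 1 or 2 or control replicate 1, 2 or 3 (adjusted p 0.16, 0.13, 0.15, 0.14 and 0.059). The call of Psmb8 ended without guide 2 replicate 1 or 2 or control replicate 1, 2 or 3 (adjusted p 0.23, 0.14, 0.13, 0.16 and 0.096).

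Growth and p53 genes moved in small steps. Of 34 cell cycle genes tested, 5 rose and none fell (median 0.12), against 2.58% of all genes higher. Of these Myc, the growth-promoting transcription factor, was the largest, at 103, 90.97 and 70.7 CPM in the guide 2 libraries and 47.5, 54.8 and 47.1 CPM in the control libraries (log2 fold change 0.83, SE 0.12, edgeR adjusted p 4.5e-04). The others were Ccne1, Cenpe, Ccne2 and Ccna2, at 0.35, 0.28, 0.28 and 0.25, and the count ran from 2 to 4 when 1 library was left out. Ccne1 lost its call without guide 2 replicate 1, 2 or 3 or control replicate 1 or 2 (adjusted p 0.18, 0.14, 0.0508, 0.19 and 0.18). For Cenpe this was so without guide 2 replicate 1 or 3 or control replicate 1 or 2 (adjusted p 0.19, 0.071, 0.12 and 0.21). For Ccne2 it was so without guide 2 replicate 1 or 2 or control replicate 1, 2 or 3 (adjusted p 0.19, 0.17, 0.11, 0.15 and 0.083). The proliferation marker Mki67 did not pass (0.17, adjusted p 0.39). Of 23 p53 target genes tested, 6 fell and 1 rose (median -0.17), against 1.94% of all genes lower and 2.58% higher. Phlda3, a p53-induced repressor of AKT, was at 7.82, 9.096 and 9.21 CPM against 14.6, 13.9 and 12.6 CPM (log2 fold change -0.66, SE 0.12, edgeR adjusted p 0.0033), and the death receptor Eda2r at 6.35, 4.85 and 8.98 CPM against 17.1, 16.04 and 10.8 CPM (log2 fold change -1.15, SE 0.23, edgeR adjusted p 0.0079). The cell cycle inhibitor Cdkn1a was at -0.30, Zmat3 at -0.35, Ccng1 at -0.39 and Btg2 at -0.57, the rise was Plk2 (0.55), and Mdm2, which degrades p53, did not pass (-0.35, adjusted p 0.084). Eda2r lost its call without guide 2 replicate 2 or control replicate 1 (adjusted p 0.0534 and 0.0501). For Cdkn1a this was so without guide 2 replicate 1 or 2 or control replicate 1 (adjusted p 0.12, 0.11 and 0.088). For Ccng1 it was so without guide 2 replicate 1 or 2 or control replicate 1 or 2 (adjusted p 0.22, 0.15, 0.18 and 0.16). Btg2 lost it without guide 2 replicate 1, 2 or 3 or control replicate 1, 2 or 3 (adjusted p 0.16, 0.14, 0.087, 0.12, 0.18 and 0.080). The call of Plk2 ended without guide 2 replicate 1 or 3 or control replicate 1 or 3 (adjusted p 0.069, 0.066, 0.090 and 0.084). The 6 falls were 2 without guide 2 replicate 2 or control replicate 1, 3 without guide 2 replicate 1, 4 without control replicate 2 and 8 without guide 2 replicate 3. With guide 1, 4 of the 23 were called lower than the same control libraries, against 1.19% of all genes, with a median of -0.26. None of the 23 was called in the direct test between the guides.

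Respiratory chain (22 tested), replication-dependent histone (14) and RNA interference and selection genes (12) gave no call, where 4.53% of all genes were called. Lists this short can give no call at that share. Their medians were 0.04, 0.30 and 0.02. Of the 14 histone genes 3 lay below 0, and 19 of the 24 listed averaged below 1 CPM. Of 29 genes of heterochromatin and repeat silencing, 2 rose and none fell, against 2.58% of all genes higher, and the median of the list was 0.02. These were the DNA methyltransferase Dnmt3a (0.37, adjusted p 0.038) and Morc2a, a partner of the HUSH silencing complex (log2 fold change 0.24, SE 0.04, edgeR adjusted p 0.0053). Trim28 and Dnmt1, central silencing factors, were at -0.07 (adjusted p 0.50) and 0.14 (adjusted p 0.41). Dnmt3a lost its call without guide 2 replicate 1, 2 or 3 or control replicate 1 or 2 (adjusted p 0.13, 0.090, 0.071, 0.18 and 0.19).

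A few genes were at or near 0 in 1 of the 2 groups. Rnf150, a membrane ubiquitin ligase (chr8:82863356-83091268), had 38, 40 and 34 counts in the control libraries at 0 h and 0 in all guide 2 libraries, at least 45.8-fold lower against a floor of 3 counts over the group, and it was also at 0 in the 3 guide 1 libraries. At 2 h it had 15, 35 and 35 counts with the control guide and 2, 0 and 0 with guide 2. Cntnap5c was at 0, 0 and 0.0253 CPM against 0.251, 0.707 and 0.751 CPM and stood at 0.0466, 0 and 0 CPM with guide 1. Cntnap2 went the other way, at 0.579, 0.531 and 0.658 CPM against 0, 0.0428 and 0 CPM, and at 0, 0 and 0.0186 CPM with guide 1; these 3 were singled out after their values were seen. Genes were also placed on the genome in windows of 10 Mb (12781 genes in 250 windows, mm10). The window from 130 to 140 Mb of chromosome 3 was also singled out after its values were seen. It held 38 genes tested, 10 of them higher and none lower, where 2.58% of all genes were higher, with a median log2 fold change of 0.16. The same genes had a median of 0.18 at 2 h and of 0.18 with guide 1, the latter against the same control libraries. The 10 genes included Manba, a lysosomal mannosidase, Eif4e, the cap-binding translation factor, and Cenpe, at 0.54, 0.16 and 0.28. Each lost its call when single libraries were left out, Manba without guide 2 replicate 1 or 3 or control replicate 1 or 2 (adjusted p 0.058, 0.067, 0.091 and 0.13). For Eif4e this was so without guide 2 replicate 1 or 2 or control replicate 1, 2 or 3 (adjusted p 0.14, 0.18, 0.060, 0.11 and 0.13). The libraries that ended the call of Cenpe are given above. In 2 of the 250 windows the median lay more than 0.15 from 0, and 3 windows held 10 or more called genes. Why neighbouring genes shifted together was not tested.

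After 2 h of LPS most of these genes differed in the same direction. Between guide 2 and control at 2 h, 779 of 13078 genes (5.96%) were called, 463 higher (3.54%) and 316 lower (2.42%). The count was 348 without guide 2 replicate 1 at 2 h, 1213 without guide 2 replicate 3, 296 without control replicate 1 and 327 without control replicate 2. Of the 592 genes called at 0 h, 576 (97.3%) had the same sign at 2 h, against 73.4% of all genes tested, 354 were called at 2 h in the same direction and 1 in the opposite one. The 0 h and 2 h libraries are separate samples of the same guides. Axl was at 92.4, 117 and 102 CPM with guide 2 and 14.02, 13.3 and 17.02 with the control guide at 2 h (log2 fold change 2.81, adjusted p 5.8e-10), so it was higher in both groups after LPS than before and kept most of its difference. Ctsk (2.06), Igf1 (1.66), Jmjd1c (-1.59) and Jag2 (-2.91) also stayed close to their values at 0 h. Smaller at 2 h were Il13ra2 (0.70, adjusted p 0.025), Irf7 (-0.70, adjusted p 0.041), Rtp4 (-0.24, adjusted p 0.75) and Timp1 (-0.44, adjusted p 0.30). Of the 56 interferon-stimulated genes 7 were called lower at 2 h and none higher, and their median was -0.08. The call in the opposite direction was Tnfsf9, the ligand of 4-1BB, at -0.56 (adjusted p 0.0065) at 0 h, lost without guide 2 replicate 1 (adjusted p 0.0521), and 0.43 (adjusted p 0.019) at 2 h. In the test of the change itself, the interaction of guide and time, edgeR called 0 of 13078 genes, with 449 at an unadjusted p below 0.05, while DESeq2 called 14. edgeR called 3 without guide 2 replicate 3 of either time, 1 without guide 2 replicate 2 at 2 h and 2 without control replicate 3 at 2 h.

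**Figure D4:**
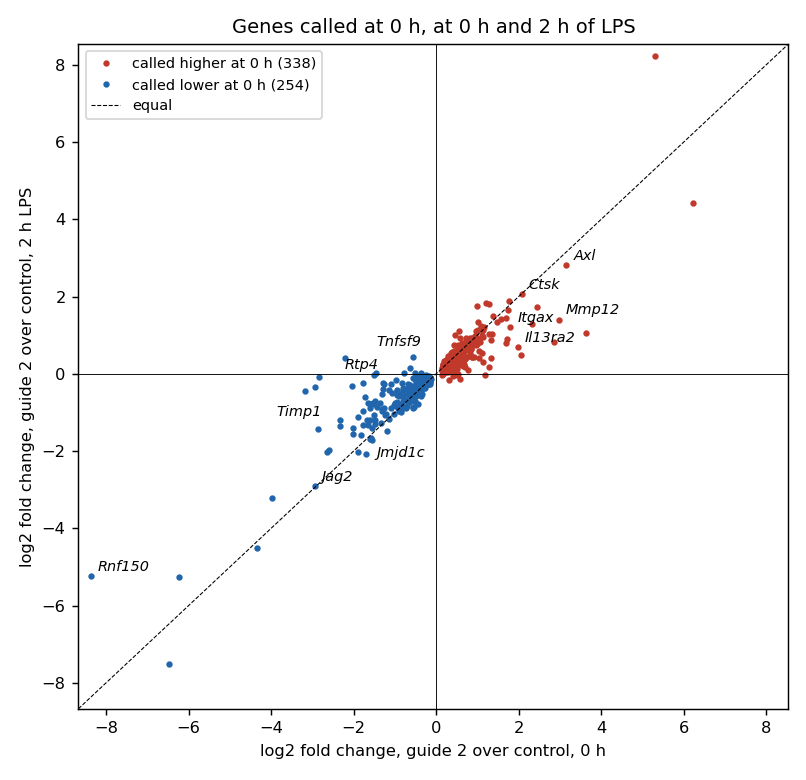
Log2 fold change, guide 2 over control, at 0 h (horizontal axis) and after 2 h of LPS (vertical axis) for the 592 genes called at 0 h, red where higher (338) and blue where lower (254); the dashed line marks equal values. Of the 592 points, 576 lie in the quadrants of equal sign, and Timp1 and Rtp4 lie nearer to 0 at 2 h than at 0 h.

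Transposable element counts made up slightly less of the guide 2 libraries. Their share of gene and TE counts was 4.20% ± 0.14 (SD, n = 3) with guide 2 and 4.52% ± 0.19 with the control guide, and the groups did not overlap; an exact two-sided permutation test gave p = 0.10, the smallest that 3 against 3 libraries allow. The LTR share was 1.47% ± 0.03 against 1.62% ± 0.05 (exact permutation p = 0.10, n = 3), and the SINE share 1.96% ± 0.08 against 2.08% ± 0.10 (exact permutation p = 0.20, n = 3). Of 937 subfamilies tested on the gene scaling, 48 (5.12%) were called, 6 higher (0.64%) and 42 lower (4.48%), and 33 of the 42 lower were LTR elements, which were 586 of the 937 tested. The median over all subfamilies was -0.11, and with totals and factors of the repeat table itself 27 (2.86%) were called, 17 higher (1.8%) and 10 lower (1.06%), and 16 of the 48 passed on both scales. Values below are on the gene scale and, after it, relative to the other repeats. None of the 35 SINE subfamilies tested was called on the gene scale, where 94.3% of them and 80.7% of all 937 lay below 0. Relative to the other repeats 8.57% of the SINE subfamilies lay below 0. On the gene scale the 48 became 15 and 17 without guide 2 replicates 1 and 2 and 16 without control replicate 2. Without the cohort 3 libraries of all groups they were 122, 12 higher and 110 lower.

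Named subfamilies that fell on both scales were LTR elements. RLTR45-int, the internal part of an ERVK element, was at 159, 160.4 and 146 CPM in the guide 2 libraries and 214, 252 and 219 CPM in the control libraries (log2 fold change -0.56, SE 0.07, edgeR adjusted p 1.9e-05) and at -0.44 relative to the other repeats (adjusted p 4.7e-04). ERVB4_3-I_MM-int was at 103, 85.995 and 95.5 CPM in the guide 2 libraries and 136, 159.5 and 139 CPM in the control libraries (log2 fold change -0.61, SE 0.09, edgeR adjusted p 5.1e-05) and -0.50 (adjusted p 4.7e-04), and with guide 1 it was -0.75 (adjusted p 2.0e-06) against control. Here 1 copy held 73.3% of the counts, and without that copy the subfamily was at -0.66 on the gene scale (edgeR adjusted p 7.9e-07). MERVL-int, of the element known from the early embryo, was at 19.9, 17.8 and 19.1 CPM against 25.8, 28.04 and 24.3 CPM (log2 fold change -0.46, SE 0.09, edgeR adjusted p 0.0026) and -0.35 (adjusted p 0.0043). In each of the 3 the groups did not overlap. IAPEz-int, the internal part of the intracisternal A particle, was at 253, 266 and 307 CPM against 350.3, 334 and 335 CPM (log2 fold change -0.30, SE 0.07, edgeR adjusted p 0.0094) but missed the threshold relative to other repeats (-0.20, adjusted p 0.18). MMVL30-int, of the VL30 element, was at 583, 582 and 663 CPM against 707, 747 and 867 CPM (log2 fold change -0.34, SE 0.09, edgeR adjusted p 0.019) and -0.24 (adjusted p 0.29). In MMVL30-int 1 copy held 79.1% of the counts, and without that copy the subfamily was at -0.54 on the gene scale (edgeR adjusted p 7.9e-06). The LINE-1 subfamily L1Md_T was at -0.24 (adjusted p 0.019), a call that ended relative to the other repeats, at -0.13 (adjusted p 0.059), and without its largest copy, which held 27.04% of its counts, at -0.11 (adjusted p 0.25). L1Md_A, another LINE-1 subfamily, was at -0.04 (adjusted p 0.76) and, relative to the other repeats, 0.07 (adjusted p 0.55). The SINEs B1_Mm and B2_Mm2 were at -0.08 (adjusted p 0.30) and -0.08 (adjusted p 0.31), and relative to the other repeats at 0.03 (adjusted p 0.61) and 0.03 (adjusted p 0.74). MuLV-int and RLTR4_MM-int, elements of murine leukaemia virus kind, did not pass, at -0.07 (adjusted p 0.63) and -0.15 (adjusted p 0.12), nor relative to the other repeats, at 0.05 (adjusted p 0.87) and -0.03 (adjusted p 0.86). L1Md_A, B1_Mm, B2_Mm2 and MuLV-int thus changed sign between the scales.

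**Figure D5:**
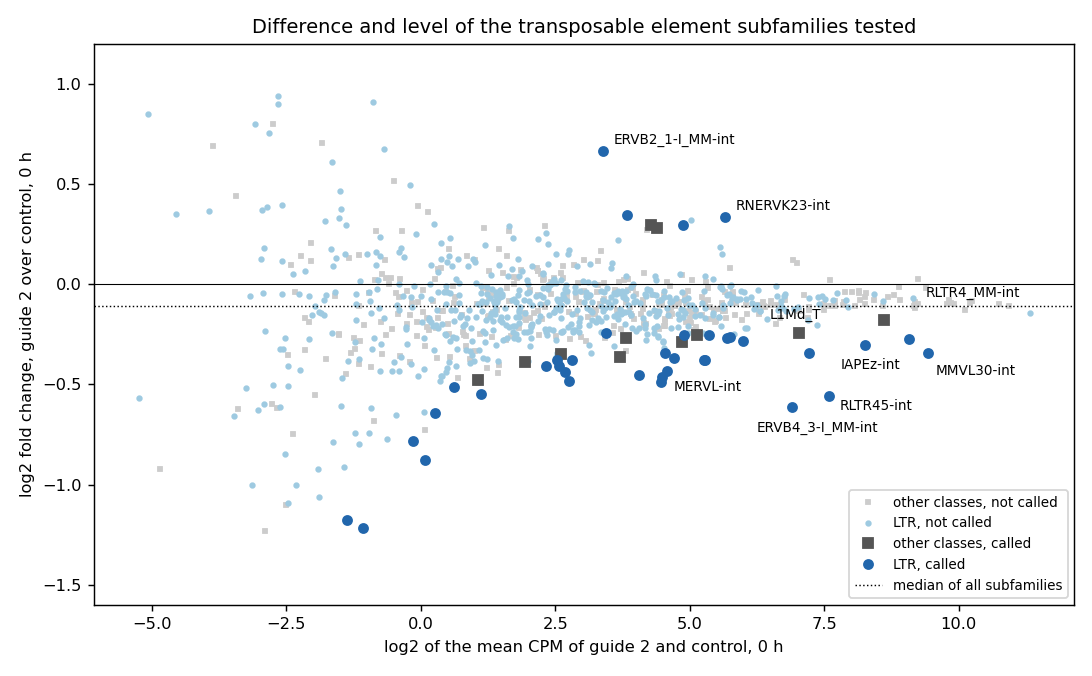
Each point is 1 TE subfamily, with the log2 of its mean CPM over both groups at 0 h on the horizontal axis and its log2 fold change, guide 2 over control on the gene scale, on the vertical axis; circles are LTR subfamilies, squares other classes, large symbols passed the adjusted p of 0.05, and 1 subfamily below and 3 above the axis range are not drawn. The dotted line is the median of all subfamilies at -0.11, and 33 of the 42 subfamilies called lower are LTR elements.

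None of the 6 higher subfamilies kept its call without its largest copy, and 19 of the 42 lower ones lost theirs too. ERVB2_1-I_MM-int was at 11.6, 13.2 and 13.6 CPM in the guide 2 libraries and 7.41, 7.67 and 9.18 CPM in the control libraries (log2 fold change 0.67, SE 0.11, edgeR adjusted p 4.4e-04), but 1 copy gave 94.3% of its counts and without that copy it was at 0.49 (adjusted p 0.38). In RNERVK23-int 1 copy gave 77.6% of the counts, and the subfamily went from 0.34 to 0.11 without it. L1ME2, MRLTR33, RLTR12BD_Mm and MER91B were between 0.28 and 0.35 and did not pass without their largest copy, where L1ME2 turned to -0.06 (adjusted p 0.69). Relative to the other repeats the 6 were between 0.39 and 0.78 and all passed. Of the 23 lower subfamilies that kept their call without their largest copy, RLTR45-int (-0.55) and MERVL-int (-0.45) stayed close to their values with it. At 2 h all 48 subfamilies had the same sign as at 0 h, where 71.2% of the 937 did, and 15 were called there. In all, 23 of the 937 (2.45%) were called at 2 h, 8 higher (0.854%) and 15 lower (1.6%).

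Some single copies were at or near 0 in 1 of the 2 groups. Of 63366 copies with enough counts, 230 (0.363%) were called, 66 higher (0.104%) and 164 lower (0.259%). LINE-1 copies made up 68 of them (0.794% of the 8564 tested) and ERVK copies 56 (1.07% of 5222). All 19 called ERV1 copies (1.36% of 1402) were lower. The count was 121 and 119 without guide 2 replicates 1 and 2 and 141 and 123 without control replicates 1 and 2. Of the 66 higher copies, 22 had 0 counts in all 3 control libraries at 0 h, 15 of which had 0 in the guide 1 libraries too. Of the 164 lower copies, 17 had 0 counts in all 3 guide 2 libraries, 14 of which had 0 with guide 1. Copies entered the test with at least 10 counts in any 3 of the 18 libraries. A copy at 0 in 1 group can therefore have entered through the group where it was high. The share of copies at 0 in 1 group among all 63366 tested was not counted. An Lx7 copy of LINE-1 (running number 390553 in the repeat table) had 183, 130 and 63 counts in the guide 2 libraries and 0 in every control and guide 1 library at 0 h, at least 102-fold higher against a floor of 3 counts over the group. An Lx5c copy listed close to it (390555) had 101, 97 and 46 counts and was at 0 in the same libraries. At 2 h these copies had 123, 78 and 191 and 101, 90 and 128 counts with guide 2 and 0 with the control guide. At or near 0 with both guides was an L1M4 copy (1749324). Its counts were 1, 2 and 0 with guide 2 and 204, 145 and 157 with the control guide, and 2, 0 and 0 with guide 1. An MTE2b copy (486437) had 0 against 62, 26 and 29 counts, and also 0 in every guide 1 library. Of the 230 copies, 121 had another called copy within 10 running numbers, and how many of all copies tested lie as close to a called copy was not counted. At 2 h 225 of the 230 kept their sign (97.8%, against 57.3% of all copies), 107 of them called. The repeat table gives no coordinates, so the genes that these copies may lie in were not analysed here.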

How the data were processed

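The authors deposited raw read counts per gene and per repeat copy, made with STAR and HOMER on mm10, with DESeq2 also listed, per the submitters' processing notes; versions and the strand setting are not given in the sources used here. The 47 columns of the series' other experiments in each table were not used here. Gene counts of the 6 libraries ran from 36879570 to 76998163. The 3725827 repeat rows were reduced to 3649575 LINE, SINE, LTR, DNA and RC copies and summed over 1057 subfamilies.

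Genes were filtered with filterByExpr, scaled by TMM and fitted with edgeR 4.0.16 (R 4.3.3, quasi-likelihood, prior count 2), with 1 term per group over all 18 libraries of the experiment and Benjamini-Hochberg adjustment over all genes. Repeat counts were scaled by the gene totals and TMM factors. Copies needed at least 10 counts in 3 libraries. CPM were taken from TMM-scaled gene totals, and SE was taken from the log2 fold change and the F statistic. The fit was tested on simulated counts with 200 changed genes. Promoters came from RefSeq (GRCm38.p6) and gene positions from GENCODE M21, both of the mm10 assembly, and 12781 of 13078 genes were placed by symbol.

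Named genes were, per list, up to 4 called members with the largest change and 2 uncalled members with the highest CPM, and, over all genes, the 12 strongest rises and falls without overlap whose higher group averaged 5 CPM or more, passing over predicted and small RNA genes. Axl, Mertk and Gas6 were always included. Others complete a count, check the cells or stand beside a named gene, and were chosen after their values were seen. Members and lists were chosen with earlier results of these data known. Cohort numbers were not treated as pairs in the main fit. Same-numbered guide 2 and control libraries at 0 h had correlations of 0.017, 0.036 and 0.097 between their deviations from the group means. At 2 h these correlations were 0.029, 0.159 and 0.218. Alternatives were DESeq2 1.42.0, a replicate block, only the groups compared, other scaling and filters, and leaving out each library. The alternatives without cohort 3 and with only 0 h libraries, and subfamily sums without their largest copy, were chosen after seeing the data. Results on a few genes are not reported here.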

Additional observations from a re-analysis of the deposited data

How the results depend on the processing

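No named gene called at 0 h changed sign under any alternative run on single genes. Of the named subfamilies, L1ME2 reversed from 0.30 to -0.060 without its largest copy, and on repeat table scaling 4 that had not passed (L1Md_A, B1_Mm, B2_Mm2 and MuLV-int) changed sign without a call. Genes called between guide 2 and control at 0 h were 957 with DESeq2 and 1551 without cohort 3 in all groups, and stayed within 1.5 times of 592 with only the 2 groups in the fit (560), RLE factors (590), no filter (589) and only the 0 h libraries (798). At 2 h DESeq2 called 1232, between guide 2 and guide 1 371, between guide 1 and control 557 and for the change with LPS 14. With a replicate block, which treats equal cohort numbers as pairs, the counts were 1647 at 0 h, 2072 at 2 h, 527 between guide 2 and guide 1, 903 between guide 1 and control (495 higher and 408 lower), 16 for the change with LPS, 82 subfamilies and 384 copies. At 0 h cohort 1 of guide 2 correlated best with control cohort 2 (0.020, against 0.017 with its own number). Cohort 2 of guide 2 correlated best with control cohort 1 (0.060, against 0.036). Cohort 3 of guide 2 correlated best with control cohort 3 (0.097). At 2 h each guide 2 library correlated best with the control library of its own number (0.029, 0.159 and 0.218). This also held between guide 2 and guide 1 at 0 h (0.048, 0.197 and 0.145) and between guide 1 and control at 0 h (0.084, 0.082 and 0.171). Whether the cohort number marks a shared batch was not tested. Leaving out 1 library gave 252 to 671 genes at 0 h, 296 to 1213 at 2 h, 121 to 231 against guide 1, 142 to 258 for guide 1 against control, 0 to 3 for the change with LPS, 15 to 66 subfamilies, 119 to 206 copies and a difference in TE share of -0.403 to -0.22 percentage points. Subfamilies called were 79 with DESeq2, 82 with only the 2 groups, 27 with repeat table scaling (17 higher and 10 lower), 122 without cohort 3 and 31 without each subfamily's largest copy. The cause of these moves was not tested. Depth limits low genes such as Timp1, where few counts stand behind a value.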

Other observations

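Mir682, a small RNA gene, did not pass the test between guide 2 and control at 0 h (log2 fold change 6.52, edgeR adjusted p 0.088), and its level was split within groups. It stood at 0.394, 71.0 and 67.7 CPM in guide 2 replicates 1 to 3 and between 0.486 and 0.516 CPM in the control libraries. Guide 1 was at 64.7, 66.9 and 0.447 CPM at 0 h and at 77.9, 0.520 and 0.321 CPM after 2 h of LPS. All guide 2 and control libraries at 2 h were below 1 CPM.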
